A study of Sus scrofa with 6 samples.

Results

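Asparagine synthetase (ASNS) is 1 of 6765 genes to which the annotation of this porcine array gives a probe set with a single symbol, and 1 of the 5407 genes that remained after dim probe sets were left out. It was read by 1 probe set. The gene was chosen by its measured intensity, which was about 4-fold lower in atria with mitral regurgitation, with or without valsartan, than in control atria. Its differences from the controls are therefore given as a description, with no test.

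The RNA came from the left atria of 6 male pigs aged 18 months, with n = 2 in each of 3 groups and 1 array per animal. MRV pigs had mitral regurgitation, in which blood leaks back through the mitral valve into the atrium, made surgically by perforating the posterior leaflet (2.8 mm). They also took valsartan, which blocks type I angiotensin II receptors, at a daily dose of 3.43 mg/kg that began 1 week before the operation. MR pigs had the same lesion without valsartan, and both lesioned groups were killed 12 months after surgery. NC pigs were normal controls with no operation recorded, so the lesion and the operation cannot be told apart in any comparison with them. The labels name Lanyu miniature pigs for the lesion model.

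ASNS makes asparagine from aspartate, taking the amide nitrogen from glutamine and spending ATP. In mammalian cells its transcription is a textbook readout of the amino acid response: when an amino acid is short, the kinase GCN2 phosphorylates the initiation factor eIF2, translation of the transcription factor ATF4 goes up, and ATF4 activates ASNS together with genes of serine synthesis, amino acid uptake and tRNA charging. The kinase PERK feeds the same route when unfolded proteins gather in the endoplasmic reticulum.

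The array medians lay between 90.2 and 93.4 intensity units. The atrial genes NPPA, which encodes atrial natriuretic peptide, and MYL4, the atrial myosin light chain, read at least 18414 on every array. Summed intensities of 11 lists of cell type markers overlapped between the 4 lesioned arrays and the 2 NC arrays in all 11 lists. Only 10% of all 5407 genes showed no overlap there, so this does not show that the cell types were equal. Single markers did separate. On the lesioned arrays 2 fibroblast, 1 adipocyte and 1 atrial muscle marker were lower without overlap. Higher without overlap were 1 atrial muscle marker and 1 marker of cartilage and valve. The actin 3'/5' ratio, a measure of RNA integrity that is higher in degraded RNA, was 2.30 and 1.87 in MRV, 1.44 and 1.70 in MR, and 1.61 and 1.91 in NC. Across the tested probe sets, which are no replicates, the r of NC2 was 0.983 with MRV2 and 0.959 with NC1.

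ASNS read 214 and 237 in the MRV atria, 193 and 173 in the MR atria, and 779 and 852 in the NC atria. All 4 lesioned animals were low and both controls were high, with a wide gap between them. The group means were 225 ± 16.3 in MRV, 183 ± 14.3 in MR and 816 ± 52.0 in NC (SD, n = 2). The lesioned atria thus held 27.6% of the control intensity with valsartan and 22.4% without it. Over the 8 possible pairs of a control and a lesioned animal, the control was between 3.29 and 4.93 times as bright. The 4 lesioned animals differed among themselves by at most 1.37-fold.

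**Figure D1:**
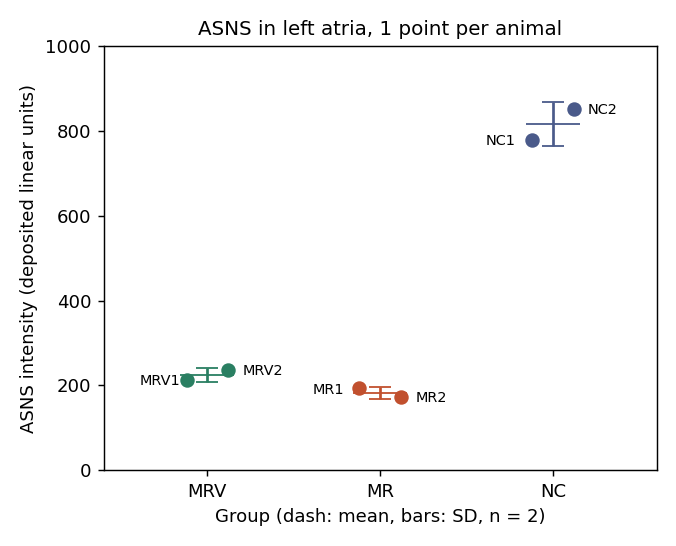
Deposited ASNS intensity (vertical axis, linear units from 0) in each of the 6 left atria, by group, with 1 point per animal, the group mean as a dash and the SD as bars (n = 2). The 4 lesioned animals lie between 173 and 237, and the 2 NC animals at 779 and 852.

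On the scale of log2(intensity + 16) used throughout, the difference was -1.79 (SE 0.12) for MRV minus NC, -2.06 (SE 0.12) for MR minus NC and -1.92 (SE 0.10) for the mean of both lesioned groups minus NC. The ASNS readings of replicate animals lay close together in every group, with an SD on this scale of 0.098 in MRV, 0.10 in MR and 0.090 in NC. Its residual SD of 0.097 compares with a median of 0.14 over all tested probe sets, and 28.6% of them had a smaller one. Leaving out NC1 gave a difference of -1.99 between the lesioned groups and NC, and leaving out NC2 gave -1.86. With the actin ratio of each array as a covariate it was -1.91. Fewer cells of a type and less ASNS RNA per cell cannot be told apart in pieces of whole atrium.

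Of the 14399 tested probe sets, 9 had a lower log2 difference than ASNS in MRV minus NC, 4 in MR minus NC and 2 in the mean of both lesioned groups minus NC. As background for the counts of other genes, the share of probe sets past an adjusted p of 0.05 (limma) was 0% in MRV minus NC, 0.00694% in MR minus NC and 0.00694% in lesioned minus NC. The share stands for 1 probe set, that of ASNS, in both cases and for 0 when any 1 of the 6 arrays was left out. Since these contrasts chose the gene, nothing is read from this or from its place in them. At least 1.5 log2 units below NC in both lesioned groups were 2 genes, FABP7 and ASNS. The next genes in that order, picked after their values were seen, were LOC100510975, whose difference was -1.32 in MR, where its arrays overlapped with NC, and ACSL6, at -1.15 in MRV.

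**Figure D2:**
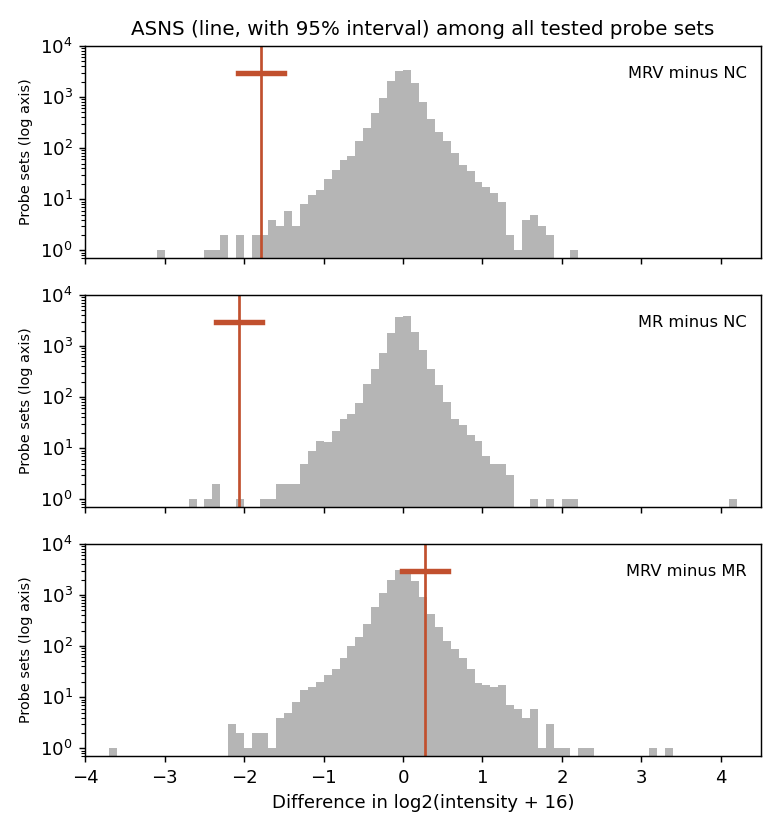
Histograms of the difference in log2(intensity + 16) (horizontal axis) over the 14399 tested probe sets for MRV minus NC, MR minus NC and MRV minus MR. The vertical axis counts probe sets on a log scale. The red line marks ASNS and the red bar its 95% interval, which lies in the far left tail of both comparisons with NC and reaches from -0.014 to 0.57 in MRV minus MR.

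The comparison of MRV with MR, which asks what valsartan alters in the lesioned atrium, was not itself used to choose the gene. The choice did require both lesioned groups to be low, which favours a small difference between them, so the test below is read with that limit. The MRV arrays read 214 and 237, and the MR arrays 193 and 173, so both treated animals were above both untreated ones. The difference was 0.28 (SE 0.12) in favour of MRV, a 1.21-fold ratio with a 95% interval from 0.991 to 1.49, and it did not pass the test (limma adjusted p = 0.703, unadjusted p = 0.0583). In this comparison 0% of all tested probe sets passed the threshold. The interval contains no difference at all and also a value 1.49-fold higher in MRV. Its upper end of 0.57 is a smaller step than the -2.06 of MR minus NC. The choice of the gene favoured that order, so nothing is read from it. Marker sums were compared between the same arrays. They were lower in both MRV arrays than in both MR arrays for 6 of the 11 lists and higher for 1. Where 2 arrays meet 2 and nothing differs, 33.3% of comparisons separate in one direction or the other. Each sum is set mainly by its brightest markers. The mesothelium and epicardium list, 1 of the 6, had 3 measured markers, all below the filter on dim probe sets. Among them were the 3 measured ventricular muscle markers of 5 listed, at 8703 and 9369 in MRV against 21365 and 12734 in MR, the 8 measured adipocyte markers of 10 listed, at 4187 and 4219 in MRV against 5677 and 4987 in MR, and the 4 measured Schwann cell and neuron markers of 8 listed, at 1108 and 1811 in MRV against 3015 and 2767 in MR. Among the measured adipocyte markers only LIPE separated the MRV from the MR arrays, and it was higher in MRV (log2 difference 0.49). The others overlapped, FABP4 and LPL among them, so the lower adipocyte sum is no fall of these markers as a set. The part of the differences between marker sums in the ASNS difference was not tested.

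Genes around ASNS in metabolism and stress signalling were gathered in 10 lists of 192 genes besides ASNS. Of these, 117 had a probe set with a single symbol, and 102 were bright enough to be tested. TRIB3, CHAC1, SESN2, SLC7A11, SLC7A5, SLC38A2, SHMT2 and the kinase genes EIF2AK3 (PERK) and EIF2AK4 (GCN2), all central to the pathway, are not analysed here. Between lesioned and NC atria, 0 of the 102 genes passed the adjusted threshold with limma, and 5 lower and 2 higher genes had an unadjusted p under 0.05. Among all 5407 genes those shares were 2.40% lower and 1.28% higher. The 3 genes ATF3, GLUL and PSAT1 were lower by 1.5-fold or more without overlap between lesioned and NC arrays, and 0 were higher, where 0.518% of all genes were lower and 0.111% higher by that measure. Without regard to size, 13 of the 102 genes (12.7%) showed no overlap, where 543 of all genes (10%) did. The median log2 difference of the 102 genes was -0.035, against -0.0052 for all genes, while ASNS stood at -1.92. Leaving out one NC array or the other turned the sign of 49 of the 102 differences, 25 without NC1 and 24 without NC2, most of them small. The median was -0.033 without NC1 and -0.061 without NC2.

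**Figure D3:**
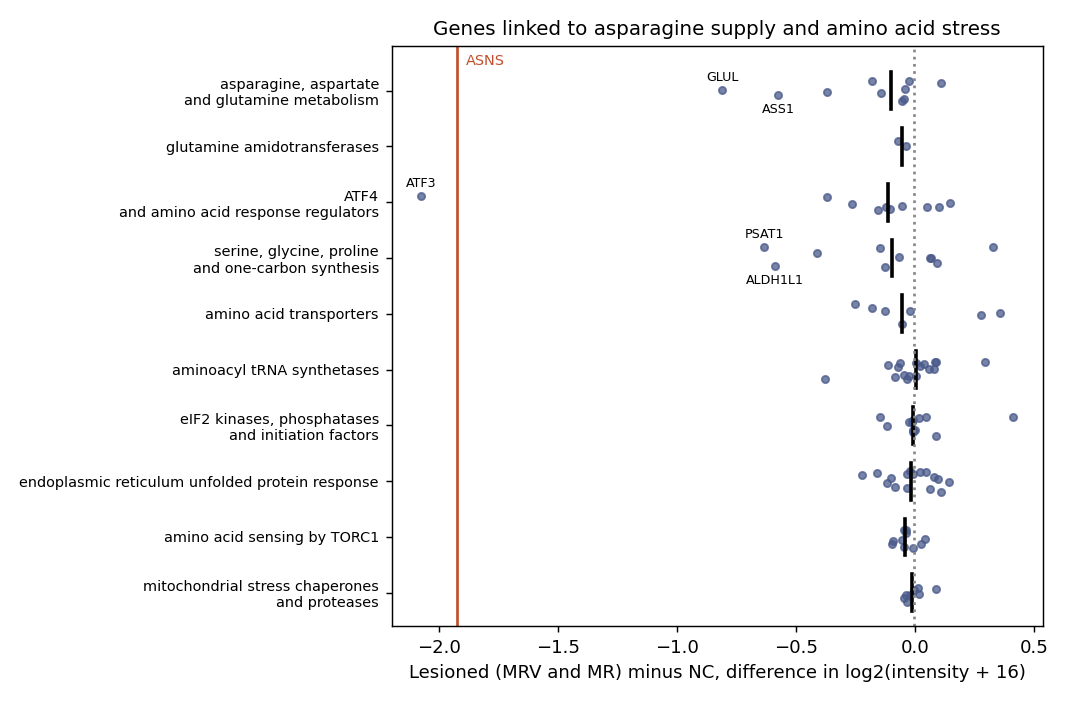
Difference between lesioned (MRV and MR) and NC atria in log2(intensity + 16) (horizontal axis) for each tested gene of the 10 lists, 1 point per gene, with a black bar at each list's median and a dotted line at the median of all genes. ASNS, drawn as a red line at -1.92, lies far left of all the points but ATF3 at -2.07.

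The RNA of ATF4, the main regulator of the pathway, did not share the pattern of ASNS. Its protein, which the response raises through translation, was not measured. ATF4, the transcription factor that drives ASNS, read 1776 and 1578 in MRV, 2561 and 2305 in MR, and 1913 and 2295 in NC. Both MRV animals were below both controls (-0.32) and both MR animals were above both (0.21), which gave a mean log2 difference of -0.055 (SE 0.12). MRV minus MR was -0.53 (limma unadjusted p = 0.00927, adjusted p = 0.558). The sign of this difference between the lesioned groups was opposite to that of ASNS, and neither difference passed the adjusted threshold. A dim second ATF4 probe set, between 18.2 and 28.3 on all arrays, was below the filter.

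ATF3, a stress-induced factor that binds the same class of promoter element, was the other list member with a large difference. It read 89.1 and 49.0 in MRV, 265 and 357 in MR, and 1100 and 409 in NC. Every lesioned array was below both controls, but the 2 controls differed from each other more than 2-fold, unlike those of ASNS. The log2 difference between lesioned and NC atria came to -2.07 (SE 0.42), with an adjusted p of 0.999631 from limma. Without NC1 it was -1.38, and without NC2 -2.77. In MRV minus MR it was -1.97 (limma unadjusted p = 0.00690, adjusted p = 0.533), again opposite in sign to ASNS.

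No other member of the response list differed from NC by as much as ASNS or ATF3. DDIT3 (CHOP), the factor of prolonged stress, read 205 and 266 in MRV, 219 and 222 in MR, and 184 and 226 in NC. CEBPB, a partner of ATF4 on the ASNS promoter in human cells, read 1051 and 995 in MRV, 695 and 993 in MR, and 1053 and 1006 in NC. Both MR animals were below both controls for CEBPB, at -0.30. CEBPG, which forms dimers with ATF4, read 89.7 and 83.1 in MRV, 92.5 and 107 in MR, and 128 and 103 in NC. Both MRV animals were below both controls, by -0.35 (limma unadjusted p = 0.0461, adjusted p = 0.905), while MR overlapped with NC. TXNIP, which encodes a thioredoxin inhibitor, read 10668 and 10292 in MRV, 7043 and 8001 in MR, and 8740 and 10675 in NC. Both MR animals were below both controls, by -0.36 (limma unadjusted p = 0.0416, adjusted p = 0.999955), and MRV minus MR was 0.48 (limma unadjusted p = 0.0144, adjusted p = 0.587). For the growth factor gene VEGFA, too, both MR animals were below both controls, by -0.49 (limma unadjusted p = 0.0548), and the lesioned minus NC difference of -0.37 was -0.090 without NC1. A second bright VEGFA probe set differed by -0.20 (limma unadjusted p = 0.108), with every lesioned array below both controls. A dimmer tested one differed by -0.17 with overlap. The lipoprotein receptor gene VLDLR differed by -0.10 between lesioned and NC atria, by 0.072 without NC1, and by 0.15 in its second probe set. Of the 10 tested genes in the list, 7 were lower and 3 higher in lesioned atria, with a median of -0.11, and 0 passed the adjusted threshold (limma, 1 at an unadjusted p under 0.05).

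**Figure D4:**
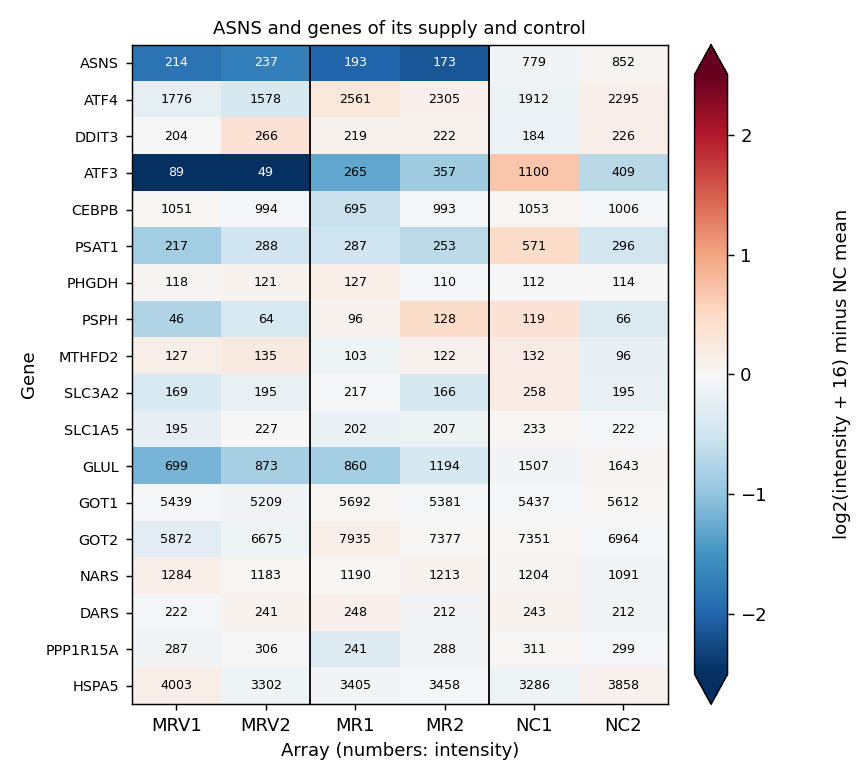
ASNS and 17 genes of its supply and control (rows) on the 6 arrays (columns, MRV, MR and NC). Numbers are intensities, and colour is log2(intensity + 16) minus the mean of the NC arrays, blue for lower and red for higher. ASNS is low on all 4 lesioned arrays, GLUL is lower on them by a smaller step, ATF3 is lowest in MRV, and most other rows are pale.

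Next to ASNS in the pathway stands GLUL, glutamine synthetase, which makes the amide donor that ASNS consumes. GLUL read 699 and 873 in MRV, 861 and 1194 in MR, and 1507 and 1643 in NC. All 4 lesioned animals were below both controls, by a log2 difference of -0.81 (SE 0.17, limma unadjusted p = 0.00317, adjusted p = 0.999631). It was -0.87 without NC1 and -0.75 without NC2. Its other probe sets disagreed with each other: one, between 106 and 128 on all arrays, differed by 0.0024, and another, between 87.4 and 583, by -0.98 with overlapping groups.

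The aminotransferases that supply aspartate differed less. GOT1, the cytosolic aspartate aminotransferase, read 5439 and 5209 in MRV, 5692 and 5381 in MR, and 5437 and 5612 in NC, a log2 difference of -0.025 (SE 0.088) between lesioned and NC atria. GOT2, its mitochondrial counterpart, read 5872 and 6675 in MRV, 7935 and 7377 in MR, and 7351 and 6964 in NC. Both MRV animals were below both controls by -0.19 and both MR animals above both by 0.096, so that the mean difference of -0.048 joins groups that lay on opposite sides of NC. MRV minus MR was -0.29 (limma unadjusted p = 0.0491, adjusted p = 0.683). ASL and ASS1, which carry aspartate nitrogen into arginine, differed by -0.37 and -0.58. Without NC1 these values were -0.12 for ASL and 0.076 for ASS1. ASS1 read 199 and 320 in MRV, 367 and 391 in MR, and 746 and 293 in NC, with NC1 far above the other arrays. GPT, an alanine aminotransferase, differed by -0.18. ASRGL1, an asparaginase that breaks asparagine down, differed by 0.11, while its other tested probe set differed by -0.038. In this list 9 of 10 tested genes were lower in lesioned atria, with a median of -0.10, where 2797 of all 5407 genes were lower. Without NC1, 7 of the 10 were lower and the median was -0.029. With limma 0 passed the adjusted threshold and 1, GLUL, had an unadjusted p under 0.05. ASNS also belongs to the enzymes that take nitrogen from glutamine, of which CTPS1 (CTP synthase) and GMPS (GMP synthase) were tested, with log2 differences of -0.073 and -0.037.

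Genes of serine and glycine synthesis are usual companions of ASNS among the targets of ATF4. PHGDH, which commits glycolytic carbon to serine, read 118 and 121 in MRV, 127 and 110 in MR, and 112 and 114 in NC. PSAT1, the next enzyme, read 217 and 288 in MRV, 287 and 253 in MR, and 571 and 296 in NC. The highest lesioned PSAT1 values lay just under NC2, so that the log2 difference of -0.63 (SE 0.27) became -0.18 without NC1 and -1.09 without NC2. PSPH, the last enzyme of the route, read 46.3 and 64.3 in MRV, 96.2 and 128 in MR, and 119 and 65.6 in NC, lower in both MRV animals than in both MR animals.

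SHMT1, which converts serine to glycine in the cytosol, read 335 and 308 in MRV, 230 and 271 in MR, and 422 and 347 in NC, a log2 difference of -0.41 (limma unadjusted p = 0.0174, adjusted p = 0.999631) that was -0.28 without NC1 and -0.55 without NC2. ALDH18A1, the first enzyme of proline synthesis, ran the other way, at 595 and 694 in MRV, 635 and 579 in MR, and 491 and 499 in NC, a difference of 0.33 (limma unadjusted p = 0.0219). ALDH1L1, a folate enzyme, differed by -0.59, and by -0.18 without NC1, whose 182 stood apart from the 75.9 to 98.9 of the other arrays. The folate enzyme gene MTHFD2 differed by 0.091, and by -0.11 without NC2, and GCAT, which acts on glycine, differed by -0.13. In all 6 of the 10 tested genes were lower in lesioned atria, with a median of -0.098, and 4 of them with a median of 0.062 without NC1.

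Amino acid transporters gave 5 lower and 2 higher genes of 7 tested, with a median of -0.055 and no gene past an unadjusted p of 0.05 in lesioned minus NC with limma. SLC1A5, a carrier of glutamine and asparagine, read 195 and 227 in MRV, 202 and 207 in MR, and 233 and 222 in NC. SLC3A2, the heavy chain of several amino acid exchangers, read 169 and 195 in MRV, 217 and 166 in MR, and 258 and 195 in NC. The neutral amino acid carrier SLC1A4 differed by -0.18, the glutamine carrier SLC38A1 by 0.35 (0.11 without NC1) and the cationic amino acid carrier SLC7A1 by -0.055. The lysosomal carrier SLC38A9 read 90.9 and 116 in MRV, 46.0 and 74.5 in MR, and 38.8 and 95.1 in NC. Its difference of 0.27 was -0.24 without NC1 and 0.78 without NC2, so a single control array set its sign.

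The aminoacyl tRNA synthetases, the enzymes that use free amino acids for translation, were centred on 0, with 8 lower and 9 higher genes of 17 and a median of 0.0018. NARS, which charges the tRNA of asparagine, the product of ASNS, read 1284 and 1183 in MRV, 1190 and 1213 in MR, and 1204 and 1091 in NC. Its log2 difference was 0.085 (SE 0.095), against -1.92 for ASNS. DARS, which charges the tRNA of aspartate, differed by 0.019 and its other probe set by -0.021. The synthetases of arginine, lysine and methionine stood likewise, with RARS at -0.11, KARS at 0.079 and MARS at -0.084. AIMP2, a scaffold of the synthetase complex, read 310 and 363 in MRV, 281 and 383 in MR, and 434 and 440 in NC, a difference of -0.38 (limma unadjusted p = 0.0422, adjusted p = 0.999631).

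Among the genes of eIF2 control, EIF2AK2 (PKR), a kinase of eIF2 that responds to double-stranded RNA, read 265 and 265 in MRV, 289 and 261 in MR, and 178 and 223 in NC. All lesioned animals were above both controls, by 0.41 (limma unadjusted p = 0.0139, adjusted p = 0.999631), and the difference was 0.26 without NC1 and 0.56 without NC2. GCN1, the activator of GCN2, differed by -0.15. EIF2S1, the phosphorylated subunit of eIF2, differed by 0.088, and IMPACT, an inhibitor of GCN2, by 0.044, with -0.092 for its second probe set. PPP1R15A (GADD34), which directs the removal of that phosphate, read 287 and 306 in MRV, 241 and 288 in MR, and 311 and 299 in NC. For IMPACT both MRV animals were above both controls (0.22), while MR overlapped with NC (-0.13). Its MRV minus MR difference was 0.35 (limma unadjusted p = 0.0345, adjusted p = 0.656), and 0.12 in its second probe set. The median of the 12 tested genes in lesioned minus NC was -0.0078.

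The chaperones of the endoplasmic reticulum showed no difference of the size seen in ASNS. HSPA5 (BiP), the main chaperone of that compartment, read 4003 and 3302 in MRV, 3405 and 3458 in MR, and 3286 and 3858 in NC, a log2 difference of -0.012. MANF, a secreted stress protein gene, differed by -0.22, DNAJC3, an inhibitor of PERK, by -0.16, and the chaperones CANX and HYOU1 by 0.14 and -0.10. The 5 further CANX probe sets included 4 tested ones, with differences between -0.066 and 0.12. The 16 tested genes of the list lay between -0.22 and 0.14 in lesioned minus NC, with a median of -0.016. That mean can hide lesioned groups on opposite sides of NC. The genes lay between -0.29 and 0.26 in MRV minus NC and between -0.19 and 0.28 in MR minus NC. In MRV minus MR they lay between -0.47 and 0.39.

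The genes of amino acid sensing by TORC1, the kinase complex that couples amino acids to growth, lay between -0.098 (SESN1, a stress-induced inhibitor) and 0.043, with LAMTOR2 at -0.094, AKT1S1 at -0.047 and RHEB at -0.046. Mitochondrial chaperones and proteases lay between -0.049 (HSPD1) and 0.085 (YME1L1), with TRAP1 at -0.038 and HSPA9 at -0.034. Other tested probe sets of TRAP1 and HSPA9 differed by 0.035, by -0.081 and by 0.048. All these values are means over both lesioned groups. The TORC1 genes lay between -0.2 and 0.071 in MRV minus NC and between -0.27 and 0.16 in MR minus NC. In MRV minus MR they lay between -0.23 and 0.34, the upper end being SESN1 (limma unadjusted p = 0.0563, adjusted p = 0.698). A second SESN1 probe set stood at 0.45 there (limma unadjusted p = 0.0118, adjusted p = 0.584).

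The comparisons of MRV and of MR with NC share the same NC arrays, so their counts for the 102 genes are given side by side. In MRV minus NC, 0 passed the adjusted threshold with limma, 3 lower and 2 higher genes had an unadjusted p under 0.05 (4.44% and 1.18% of all genes), and 4 lower and 0 higher were 1.5-fold apart without overlap (1.76% and 0.407% of all genes). In MR minus NC, 0 passed with limma, 3 lower and 1 higher had an unadjusted p under 0.05 (1.92% and 2.55% of all genes), and 3 lower and 0 higher were 1.5-fold apart without overlap (0.980% and 0.647% of all genes). GLUL and ATF3 were in both of these 1.5-fold sets. PSAT1 and ALDH1L1 were in that of MRV and SHMT1 in that of MR.

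In MRV minus MR, 0 of the 102 genes passed with limma, 5 lower and 2 higher had an unadjusted p under 0.05 (6.25% and 1.63% of all genes), and 2 lower (ATF3 and PSPH) and 2 higher (SLC38A9 and EPRS) were 1.5-fold apart without overlap (2.15% and 1.26% of all genes). EPRS, which charges the tRNAs of glutamate and proline, falls outside the naming rule and was chosen after its values were seen.

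Neighbours on the chromosome were examined through the order of genes in RefSeq's Sscrofa11.1 annotation. The adjacent coding genes, TAC1 and C1GALT1, are not analysed here. The nearest measured ones on one side were DLX5, DYNC1I1, PDK4 and PON2, and those on the other were RPA3, ICA1, NDUFA4 and SCIN. In all 8 the lesioned and NC arrays overlapped, so none of the 8 was lower on all 4 lesioned arrays. Only 543 of all 5407 genes (10%) showed no overlap, so overlap in these 8 is no result about the region. RPA3, a subunit of the DNA-binding replication protein A, read 731 and 803 in MRV, 877 and 777 in MR, and 878 and 582 in NC. PDK4, which shuts off pyruvate oxidation, read 7036 and 4615 in MRV, 1311 and 1501 in MR, and 2003 and 5943 in NC, with both MR animals below both controls (log2 difference -1.29, limma unadjusted p = 0.0442, adjusted p = 0.999955) and both MRV animals above both MR animals. The PDK4 controls themselves lay far apart. DYNC1I1 went the other way in MR, at 238 and 226 against 167 and 93.7 in NC. Its log2 difference was 0.81 (limma unadjusted p = 0.0468, adjusted p = 0.999955), and MRV overlapped with NC. NDUFA4, a respiratory chain subunit, read between 14038 and 14707 on all arrays, and DLX5 and SCIN were below the filter.

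Genes with a pattern like that of ASNS were ranked by Pearson's r of log2(intensity + 16) over the 6 arrays, among 381 genes that spanned at least 1 log2 unit. All points of such a correlation share the split between 2 NC and 4 lesioned arrays, so r mostly records that split and is given as a description. An r of 0.9 or more was found for 3 genes. NTF3, a neurotrophin (r = 0.95), read 98.3 and 76.3 in MRV, 65.7 and 80.7 in MR, and 183 and 164 in NC. FABP7, a fatty acid binding protein gene best known from glia (r = 0.94), read 78.6 and 107 in MRV, 43.3 and 105 in MR, and 444 and 399 in NC. FKBP11, a prolyl isomerase of the secretory route (r = 0.91), read 563 and 543 in MRV, 423 and 516 in MR, and 722 and 939 in NC. FABP7 had a log2 difference of -2.19 between lesioned and NC atria, larger than that of ASNS, and a wider spread among the MR animals.

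The next in order were ACSL6, which activates long-chain fatty acids (r = 0.85), PSMB3, a proteasome subunit (r = 0.84), THBS1, a matrix glycoprotein (r = 0.83), and TPPP3, a tubulin-binding protein gene (r = 0.81). They were followed by ANTXR2, a matrix-binding receptor (r = 0.81), GLUL (r = 0.81) and ABHD5, a coactivator of triglyceride lipolysis (r = 0.80). All 10 were lower on every lesioned array than on both NC arrays, as were 24 of the 381 genes compared. The ranking by r with ASNS favoured that outcome, so nothing is read from it. Of the 10, NC2 read above NC1, as in ASNS, for 3, and both MRV arrays read above both MR arrays, as in ASNS, for 2. No share among all genes compared is given for these last counts, so they are a description only.

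The most opposite genes were NEBL, a Z-disc protein gene (r = -0.91), at 355 and 331 in MRV, 450 and 481 in MR, and 229 and 264 in NC, and LOC100522115 (r = -0.89). PCBP2, an RNA-binding protein gene (r = -0.73), KCNE1, a potassium channel subunit gene (r = -0.70), and SULF2, which trims heparan sulfate (r = -0.69), followed at a distance.

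**Figure D5:**
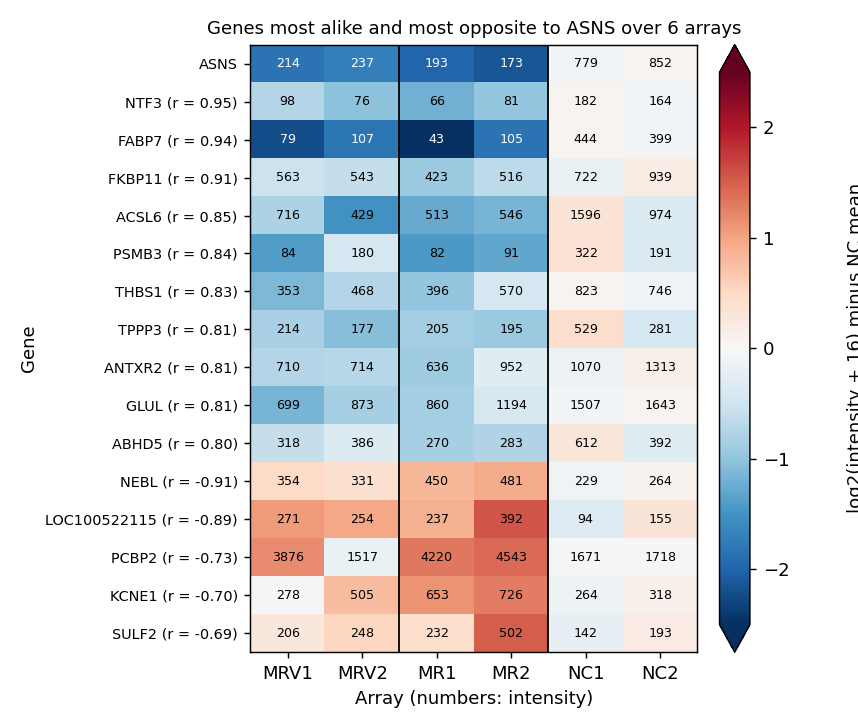
ASNS, the 10 genes with the highest and the 5 with the lowest Pearson's r with it over the 6 arrays (rows, r in brackets), on the MRV, MR and NC arrays (columns). Numbers are intensities, and colour is log2(intensity + 16) minus the NC mean. FABP7 comes nearest to ASNS in the size of the step, and NEBL is higher where ASNS is low.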

How the data were processed

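Affymetrix arrays of biotin-labelled total RNA were read as deposited, 1 array per animal. The values are 1 intensity per probe set on a linear scale, scaled between arrays by the authors before deposit, as the values show. MAS5 and RMA appear in the submitters' processing notes without roles, so the method behind these intensities is not known. The 124 control probe sets were left out, and gene symbols came from the platform annotation. Intensities were tested as log2(intensity + 16), which understates changes of dim probe sets. Of 23999 probe sets, the 14399 at or above the 40th percentile of the mean log2 value, an intensity of 60.8, were tested. Each gene was represented by its probe set with the highest mean, giving 5407 genes. A single limma 3.58.1 model of the group means (lmFit, eBayes; R 4.3.3) covered all 6 arrays, with 3 residual and 2.81 prior degrees of freedom. All SE are moderated, and adjusted p-values are Benjamini-Hochberg over the 14399 probe sets of a comparison, called at 0.05. Differences were taken as MRV minus NC, MR minus NC, MRV minus MR, and the mean of the MRV and MR means minus NC.

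ASNS, the 10 gene lists, the 11 marker lists and the rules were chosen with earlier results of these data known. The text names ASNS, the measured ones of a set of central pathway genes (17 were measured), and up to 4 more genes per list with the smallest p between lesioned and NC arrays. It also names the 4 nearest measured genes on either side of ASNS, the 10 genes most like it over the arrays and the 5 most opposite to it. Genes outside that rule are marked where they appear. The fit was tested on simulated data. The alternatives changed the pseudocount, filter, scaling, variance model, covariates, replicate block and the arrays included. The arrays' number limits the precision of every value.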

Additional observations from a re-analysis of the deposited data

How the results depend on the processing

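Under all alternatives run, ASNS kept its direction in every comparison. Its log2 difference lay between -1.86 and -1.60 in MRV minus NC, between -2.15 and -1.83 in MR minus NC, and at most -1.72 in lesioned minus NC. A pseudocount of 64, which shrinks all differences by construction, gave -1.60, -1.83 and -1.72 in the same order, the values that moved by more than the spread between replicates. MRV minus MR lay between 0.21 and 0.37, with adjusted p from 0.494 to 0.999839 and no call in any of 18 settings. Leaving out 1 array gave 0.21 to 0.35. Deviations of same-numbered arrays from their group means correlated by 0.018 (MRV with MR), 0.21 (MRV with NC) and 0.34 (MR with NC), so the numbers were not taken to pair the animals. With the replicate number as a block (replicate block) it was 0.28, with an adjusted p = 0.629, and that block changed no call of an amino acid related gene. Those genes had 0 calls in each comparison and each setting. The count of probe sets called in MR minus NC or in lesioned minus NC, 1 in both, became 0 without any one array, with the replicate block, with the actin or 28S covariate, with no filter and with quantile normalization. In MR minus NC it also became 0 with a pseudocount of 1, a mean-variance trend or only the groups compared. In MRV minus MR, where 0 were called, 2 were with the replicate block and 1 with the 28S covariate. In MRV minus NC, where 0 were called, 2 were with a filter at the 60th percentile. A fit of only the groups compared gives no value for lesioned minus NC. The cause of these changes was not tested. Of 710 recomputed list medians, 59 moved by more than the spread between arrays, and of 936 values of named genes, 36 did.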
